A study of Mus musculus with 8 samples.

Results

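The genes described here are 7 metalloproteases (Mmp9, Mmp10, Mmp13, Mmp14, Mmp15, Adam8 and Adam17) and 3 tissue inhibitors of metalloproteases (Timp1, Timp2 and Timp3). They were taken by symbol from the count table and make up 10 of its 24907 genes. The table holds 8 RNA-seq libraries of ASZ001, a mouse basal cell carcinoma line, with 2 libraries in each of 4 groups. In the first group (NS DMSO) the cells carried a non-silencing shRNA and received DMSO. In the next (knockdown DMSO) the shRNA targeted Tgfbr1, whose product is a signalling receptor for TGF-beta, and the cells received DMSO. The other 2 groups, labelled RasV12, carried the non-silencing shRNA (NS Dox-4OHT) or the Tgfbr1 shRNA (knockdown Dox-4OHT) and received Dox and 4OHT, usually short for doxycycline and 4-hydroxytamoxifen. All groups thus share the cell line and carry an shRNA. Drug doses, times, the number of shRNA sequences against Tgfbr1 and whether the lines were single clones are not stated in the labels. Loss of Tgfbr1 and other differences between NS and knockdown cells therefore cannot be told apart. Where the knockdown is said below to have raised or lowered a gene, only such a difference is meant. The design has no group with Dox and 4OHT but without RasV12, so the drugs and activated Ras cannot be told apart. Nor do the labels say whether the cells given DMSO carried the Ras construct, so a difference between Dox-4OHT and DMSO groups may be one of treatment or of cell line, and "response" is used below only as a name for that difference. Nothing in the labels ties the 2 libraries of a group to separate cultures. The p-values therefore reflect the scatter between these libraries alone, and that scatter may be technical.

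Matrix metalloproteases (MMPs) are zinc enzymes that cut collagens, laminins and other proteins outside the cell, and tumours use them at the edge of the basement membrane. ADAM proteases sit in the plasma membrane and release the outer parts of membrane proteins, among them the ligands of the EGF receptor. TIMPs are small secreted proteins that block the active site of MMPs, and TIMP3 binds to the matrix and also inhibits ADAM17. In skin, several MMP genes are targets of AP-1 and of ETS factors, which Ras signalling induces, while TGF-beta can raise or lower MMP and TIMP genes depending on the cell.

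Total counts per library ran from 12724604.5 to 16233379. Tgfbr1, the targeted gene, stood at 77.1 and 80.4 CPM (counts divided by the normalised library size and given per 1e6) in NS DMSO and at 10.2 and 8.08 in knockdown DMSO. It stood at 104 and 91.6 CPM in NS Dox-4OHT and at 8.86 and 9.42 in knockdown Dox-4OHT, so no library went against its shRNA label. The 6 epithelial markers summed to 24580 to 24934 CPM in NS DMSO, 16213 to 16966 in knockdown DMSO and 12688 to 13188 in the Dox-4OHT groups. This sum followed Krt5 and Krt14, and the list was mixed. For Dox and 4OHT in NS cells 3 of the 6 were higher and 3 lower (against 20.8% and 21.3% of all genes tested). For the knockdown under DMSO 4 were higher, Epcam, Trp63 and Dsp among them, and 2 lower (against 30.9% and 31.0%). The 7 fibroblast markers summed to at most 4.39 CPM, with Col3a1 and Lum at 0 counts throughout. The 4 endothelial markers, mostly Pecam1, summed to 37.3 to 38.3 CPM in NS DMSO, 29.6 to 30.8 in knockdown DMSO, 23.0 to 24.5 in NS Dox-4OHT and 35.3 to 35.5 in knockdown Dox-4OHT, and Tek was 5.59-fold higher with the knockdown under Dox and 4OHT (adjusted p = 3.87e-07). The 4 pigment cell markers summed to 3.37 to 6.22 CPM, with Tyr and Dct at 0. The part of such cells in the results was not tested. The ribosomal RNA gene Rn45s took 0.388% to 2.76% of the counts and was highest in knockdown Dox-4OHT and in NS Dox-4OHT replicate 2. Without Rn45s in the totals and the fit no call of a member changed. In RNA of bulk cultures, fewer cells expressing a gene and less RNA per cell cannot be told apart.

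The stretches of DNA just before the start sites are shown for 4 genes on which the results turn: Mmp10 and Adam8, which were highest in knockdown Dox-4OHT, Mmp15, which was low in both knockdown groups, and Timp3, the inhibitor gene called lower in all 4 comparisons. Each holds the 250 bases before the RefSeq start on build GRCm38.p6, a later build than the mm9 named for the counts, 5′ to 3′ on the strand of the gene. Of the 10 genes, 9 had an entry (not Mmp9). Capitals mark every match, on either strand, to 3 short motifs: TGANTCA (AP-1, the same on both strands), AGGAAG or its complement CTTCCT (PEA3 members of the ETS family), and CAGAC or GTCTG (SMAD proteins, which carry the TGF-beta signal).
Mmp10, chr9:7502092-7502341, + strand: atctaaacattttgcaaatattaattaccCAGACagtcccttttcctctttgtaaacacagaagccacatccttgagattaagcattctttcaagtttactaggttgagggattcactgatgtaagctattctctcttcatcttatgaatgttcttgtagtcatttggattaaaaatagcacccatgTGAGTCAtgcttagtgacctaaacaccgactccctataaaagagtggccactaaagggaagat
Mmp15, chr8:95352046-95352295, + strand: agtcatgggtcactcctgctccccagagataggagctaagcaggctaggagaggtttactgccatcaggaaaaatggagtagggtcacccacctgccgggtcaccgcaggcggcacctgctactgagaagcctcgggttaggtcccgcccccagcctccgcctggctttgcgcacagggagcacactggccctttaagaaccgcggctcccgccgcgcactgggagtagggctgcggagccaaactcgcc
Adam8, chr7:139992563-139992812, - strand: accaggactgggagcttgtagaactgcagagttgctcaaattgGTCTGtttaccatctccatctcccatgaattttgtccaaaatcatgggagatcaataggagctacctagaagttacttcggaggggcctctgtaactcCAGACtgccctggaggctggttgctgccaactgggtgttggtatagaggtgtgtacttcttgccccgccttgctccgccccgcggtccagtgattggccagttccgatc
Timp3, chr10:86300162-86300411, + strand: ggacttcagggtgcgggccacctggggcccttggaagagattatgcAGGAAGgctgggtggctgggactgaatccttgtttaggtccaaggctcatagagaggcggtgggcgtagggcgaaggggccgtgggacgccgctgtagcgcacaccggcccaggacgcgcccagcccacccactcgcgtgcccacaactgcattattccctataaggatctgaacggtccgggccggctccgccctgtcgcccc

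The AP-1 motif lay 63 bases before the start of Mmp10 and 35 before that of Mmp13, and in none of the other 7 members with an entry. Of all 32851 promoter windows of the same length, 6.75% held it. The PEA3 motif occurred in Mmp13 (at 109 and 62 bases), Timp3 (204), Mmp14 (209), Adam17 (153 and 122) and Timp1 (175 and 99), and 29.5% of all windows held it. The SMAD motif occurred in Mmp10 (221) and Adam8 (207 and 109) and in 42.2% of all windows. The Mmp15 window held none of the 3 motifs. No marked motifs overlapped. These matches describe letters only and show no binding. The windows of Mmp10 and Mmp13 were poor in G and C (37.2% and 40.4%, against a median of 52.4% over all windows), whereas those of Timp2 (68.0%), Timp3 (65.6%) and Adam17 (70.4%) were rich in them.

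Levels between genes were compared per length, as CPM per kilobase of the entry. In NS DMSO the inhibitor genes Timp3 (486 ± 5.50, mean ± SD, n = 2) and Timp2 (395 ± 0.859) were by far the most abundant members. The membrane-bound collagenase gene Mmp14 (66.6 ± 0.991) came next, then its relative Mmp15 (17.2 ± 0.225) and the sheddase gene Adam17 (15.4 ± 0.694). Below them stood Timp1 (5.31 ± 0.552), Adam8 (0.986 ± 0.10), Mmp10 (0.489 ± 0.0494), Mmp13 (0.119 ± 0.0200) and Mmp9 (0.0197 ± 0.0278). In NS DMSO the libraries of neighbours in this order did not overlap, though Mmp13 and Mmp9 rested on a few counts each. In NS Dox-4OHT the levels of Timp2 (301 and 307) and Timp3 (299.6 and 304.5) overlapped, and in both knockdown groups Timp2 stood above Timp3. In knockdown Dox-4OHT Adam8 (7.04 and 6.79) had moved above Mmp15 (6.75 and 6.18) and Timp1 (3.34 and 4.00), all in CPM per kilobase.

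**Figure D1:**
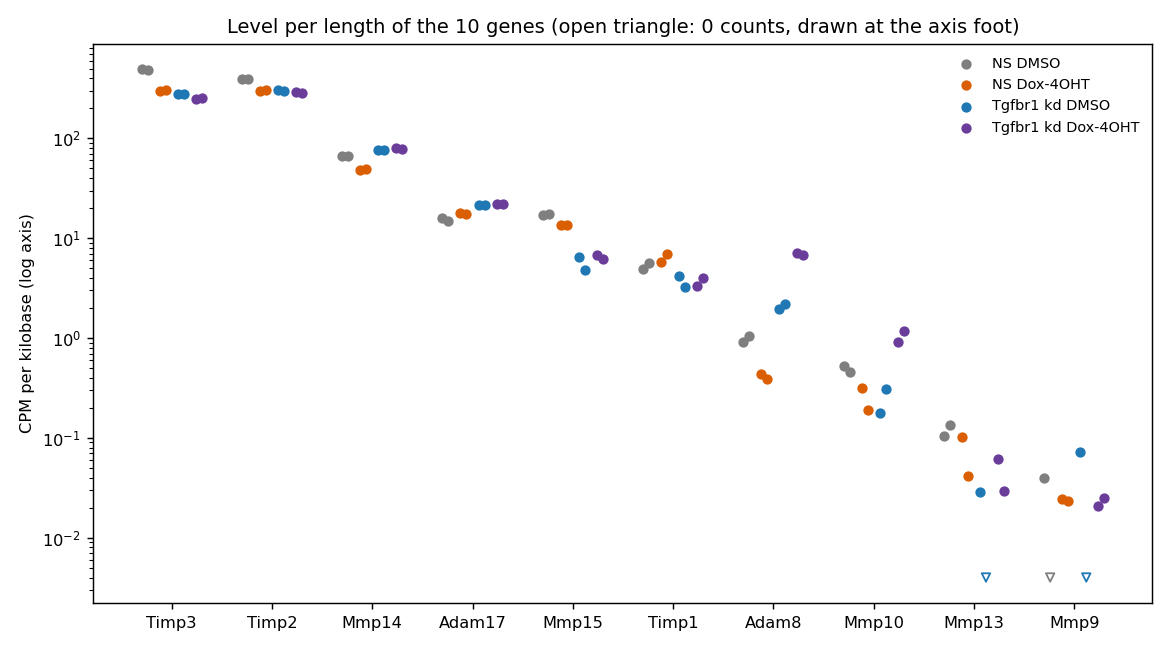
CPM per kilobase (log axis) of the 10 genes in each of the 8 libraries, by group. Timp3 and Timp2 lead in every library, and Adam8 moves up from 0.986 in NS DMSO to 6.91 in knockdown Dox-4OHT (means of 2); open triangles are libraries with 0 counts.

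Of the 10 genes, 8 passed the filter on low counts and were tested over 12538 genes. A call is a Benjamini-Hochberg adjusted p under 0.05 in edgeR's quasi-likelihood test. With Dox and 4OHT in NS cells 1 of the 8 was higher and 5 were lower. Of all genes tested 42.1% were called in this comparison, 20.8% higher and 21.3% lower. In knockdown cells 2 were higher and 1 was lower with Dox and 4OHT, against 36.1% of all genes (19.5% higher and 16.6% lower). With the knockdown 3 were higher and 4 lower under DMSO, against 61.9% of all genes (30.9% higher and 31.0% lower). Under Dox and 4OHT the knockdown left 4 higher and 4 lower, against 60.2% of all genes (30.5% higher and 29.7% lower). Changes of at least 2-fold were rarer: 1 member (Adam8) against 4.24% of all genes for Dox and 4OHT in NS cells, 2 (Adam8 and Mmp10) against 2.67% in knockdown cells, 2 (Adam8 and Mmp15) against 10.7% for the knockdown under DMSO, and 3 (Adam8, Mmp10 and Mmp15) against 10.3% for it under Dox and 4OHT. The libraries of the groups compared did not overlap for 8, 6, 8 and 8 of the 8 members in these comparisons in turn, and for 70.2%, 67.1%, 81.2% and 78.6% of all genes. With so many genes called, the sizes of the changes are given beside the counts. The median absolute log2 change of the 8 was 0.41, 0.11, 0.67 and 0.76 in these 4 comparisons in turn, and that of all tested genes 0.18, 0.16, 0.28 and 0.27. The members were chosen with earlier results of these data known, so these medians are a description and no test of the family. Comparisons that share a group share its libraries and are not independent.

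**Figure D2:**
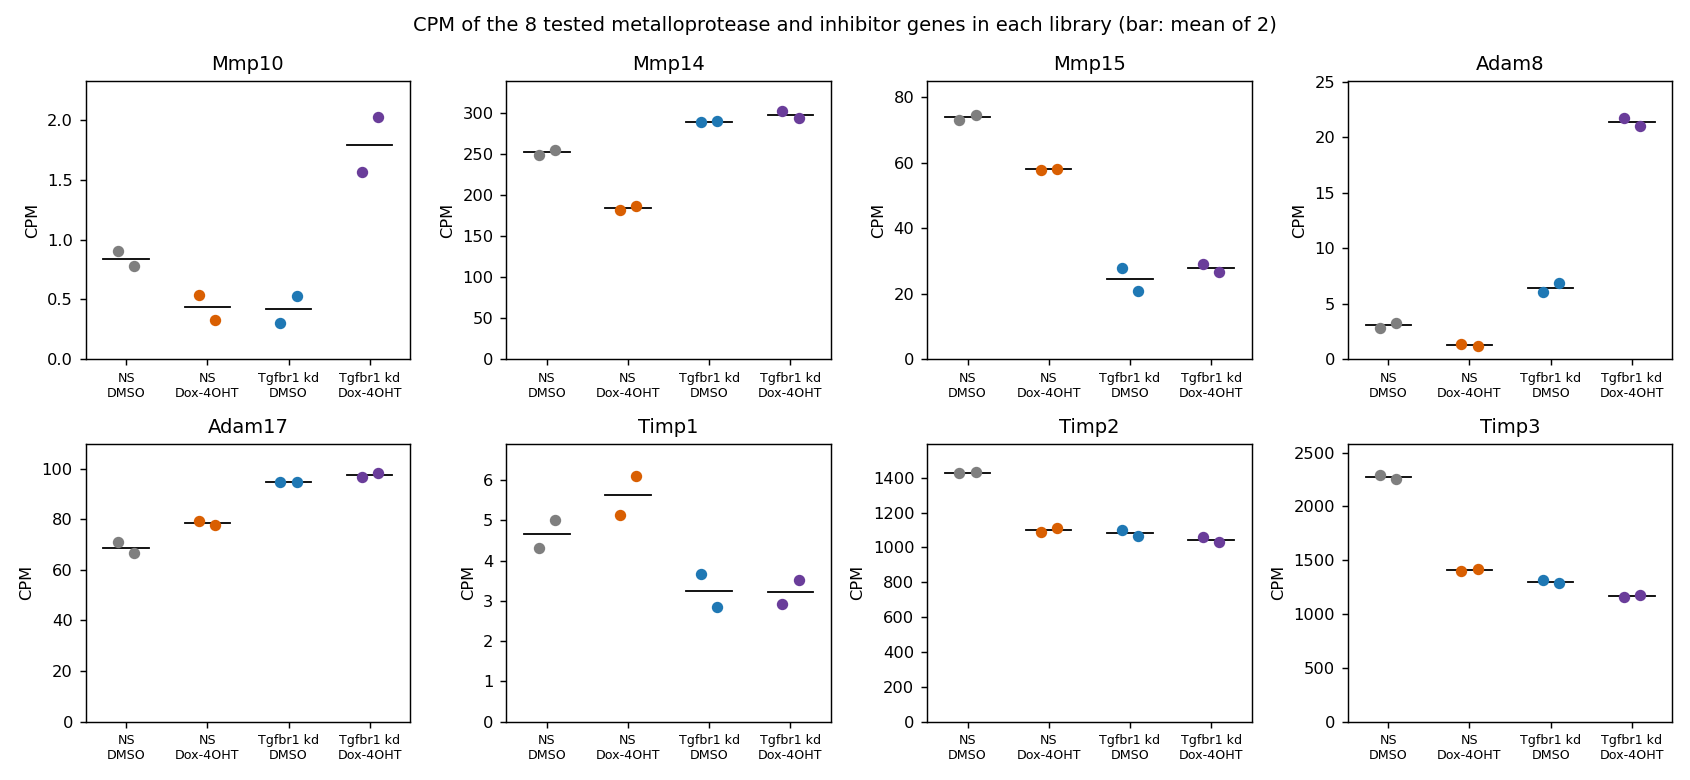
CPM of the 8 tested genes in each library, with the mean of 2 as a bar; each vertical axis starts at 0 and has its own scale. Adam8 and Mmp10 are highest in knockdown Dox-4OHT (21.0 to 21.8 and 1.56 to 2.03 CPM), Mmp15 is low in both knockdown groups, and Timp2 and Timp3 are highest in NS DMSO.

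Adam8, which encodes a membrane protease known from leukocytes and from invasive tumours, showed the largest single change of the 8 tested members. This was a log2 change of 4.05 with the knockdown under Dox and 4OHT. Mmp10 changed more than Adam8 with Dox and 4OHT in knockdown cells (2.0), and Mmp15 with the knockdown under DMSO (-1.61). Adam8 stood at 2.83 and 3.27 CPM in NS DMSO, 1.35 and 1.21 in NS Dox-4OHT, 6.07 and 6.82 in knockdown DMSO and 21.8 and 21.0 in knockdown Dox-4OHT. No libraries of different groups overlapped. The changes with Dox and 4OHT were thus opposite: in NS cells Adam8 fell (log2 change -1.25 ± 0.26 SE, adjusted p = 0.000291), while in cells with the knockdown it rose (1.72 ± 0.12, adjusted p = 6.98e-12). These responses differed by 2.97 ± 0.28 (adjusted p = 3.96e-09), rank 46 from the highest of 12538. Knockdown cells had 2.12-fold more Adam8 under DMSO (adjusted p = 6.06e-06), and with Dox and 4OHT the excess was 16.6-fold (adjusted p = 2.78e-17), the latter at rank 72 from the highest. In counts, the 16.6-fold rests on 34 in NS Dox-4OHT against 602.5 in knockdown Dox-4OHT.

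Because leukocytes express Adam8, the levels of 8 macrophage and neutrophil markers are given beside it. Their sum was 8.24 to 9.45 CPM in NS DMSO, 7.47 to 7.99 in NS Dox-4OHT, 5.65 to 5.80 in knockdown DMSO and 17.7 to 18.0 in knockdown Dox-4OHT. In knockdown Dox-4OHT nearly all of it came from Cd68, at 15.5 and 14.8 CPM, and Csf1r, at 2.22 and 3.05 CPM. Csf1r, the receptor gene of the macrophage growth factor, had the same order of groups as Adam8. It had 9 and 6 counts in NS DMSO, 0.5 and 0.5 in NS Dox-4OHT, 15 and 12 in knockdown DMSO and 34 and 39 in knockdown Dox-4OHT. It was called lower with Dox and 4OHT in NS cells (adjusted p = 0.0011), higher in knockdown cells (1.39 ± 0.32, adjusted p = 0.00138) and higher with the knockdown under Dox and 4OHT (adjusted p = 6.74e-09). Its change with the knockdown under DMSO, 0.98 ± 0.46, was not called (adjusted p = 0.0698). Cd68 was called lower with the knockdown under DMSO (-0.78 ± 0.15, adjusted p = 8.5e-05) and higher with it under Dox and 4OHT (1.01 ± 0.12, adjusted p = 7.86e-08). The part of such cells in the Adam8 result was not tested. Adgre1, Ly6g and S100a9 had 0 counts in all 8 libraries, and Ptprc, the pan-leukocyte gene, had 0 in all but the NS DMSO libraries, where it was at 0.155 and 0.213 CPM.

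Mmp10 encodes stromelysin-2, an enzyme of wound-edge and squamous keratinocytes. It was scarce, with 14.5 and 11 counts in NS DMSO, 7 and 4.5 in NS Dox-4OHT, 4 and 7.5 in knockdown DMSO and 24 and 26 in knockdown Dox-4OHT. These are 0.902 and 0.782, 0.540 and 0.330, 0.306 and 0.527, and 1.56 and 2.03 CPM. Only the knockdown Dox-4OHT libraries exceeded all others, and those of NS Dox-4OHT and knockdown DMSO overlapped. In knockdown cells Mmp10 rose with Dox and 4OHT by 2.0 ± 0.42 (adjusted p = 0.000468). In NS cells its change of -0.99 ± 0.51 was not called (adjusted p = 0.121, 95% interval -2.03 to 0.05). The responses differed by 2.98 ± 0.67 (adjusted p = 0.00076). The knockdown raised it 4.23-fold under Dox and 4OHT (adjusted p = 0.00016), and its change under DMSO, -0.90 ± 0.50, was not called (adjusted p = 0.116).

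The collagenase gene Mmp13 and the gelatinase gene Mmp9 were too low to test. Mmp13 had 4.5 and 5 counts in NS DMSO, 3.5 and 1.5 in NS Dox-4OHT, 1 and 0 in knockdown DMSO and 2.5 and 1 in knockdown Dox-4OHT. Under DMSO this is a ratio of 8.61 for NS over knockdown, with a 95% interval from 1.29 to 393 for counting error alone. When all genes with a count were tested, the adjusted p of that comparison was 0.106. Mmp9 had 2 and 0, 1 and 1, 3 and 0, and 1 and 1 counts in the same order of groups. Each group is at or under 3 counts, the limit that a count of 0 allows, so no difference in Mmp9 was detectable at this depth.

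Mmp14 encodes MT1-MMP, a membrane-bound enzyme that cuts fibrillar collagen and, with TIMP2 as a bridge, activates proMMP2. It stood at 249.6 and 254.9 CPM in NS DMSO, 182 and 187 in NS Dox-4OHT, 289 and 290.0 in knockdown DMSO and 302 and 294 in knockdown Dox-4OHT. The NS Dox-4OHT libraries were the lowest, and all 4 knockdown libraries were above all 4 NS libraries. Mmp14 fell with Dox and 4OHT in NS cells (-0.45 ± 0.04, adjusted p = 6.04e-11). With the knockdown present its change with Dox and 4OHT was 0.04 ± 0.04 (adjusted p = 0.366, 95% interval -0.03 to 0.12), and the responses differed by 0.50 ± 0.05 (adjusted p = 1.31e-08). The knockdown raised it 1.15-fold with DMSO alone (adjusted p = 1.98e-05) and, with Dox and 4OHT, 1.62-fold (adjusted p = 2.61e-15).

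Mmp15, which encodes the related membrane-bound enzyme MT2-MMP, went the other way with the knockdown. It stood at 73.2 and 74.6 CPM in NS DMSO, 57.9 and 58.2 in NS Dox-4OHT, 27.9 and 20.8 in knockdown DMSO and 29.1 and 26.6 in knockdown Dox-4OHT. Every knockdown library was below every NS library, and the 2 knockdown groups overlapped. The knockdown lowered Mmp15 3.05-fold with DMSO alone (adjusted p = 9.14e-12) and, with Dox and 4OHT, 2.08-fold (adjusted p = 5.54e-09). With Dox and 4OHT it fell in NS cells (-0.35 ± 0.07, adjusted p = 0.000857). In knockdown cells its change of 0.20 ± 0.10 was not called (adjusted p = 0.138) but rested on the spread of the DMSO pair: it was 0.41 (adjusted p = 0.00181) without knockdown DMSO replicate 1 and -0.00 (adjusted p = 0.99) without replicate 2. The difference of the responses, 0.55 ± 0.13 (adjusted p = 0.00198), was 0.34 (adjusted p = 0.0161) without knockdown DMSO replicate 2. Mmp14 was 3.57 to 3.88 times as abundant per length as Mmp15 in the 4 NS libraries and 11.8 to 15.8 times in the 4 knockdown libraries.

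Adam17 encodes the sheddase of TNF and of several EGF receptor ligands. It stood at 70.9 and 66.5 CPM in NS DMSO, 79.3 and 77.7 in NS Dox-4OHT, 94.7 and 94.7 in knockdown DMSO and 96.8 and 98.2 in knockdown Dox-4OHT. The groups did not overlap, and the knockdown libraries were the higher ones. The knockdown raised it by 0.46 ± 0.05 with DMSO alone (adjusted p = 5.82e-09) and, with Dox and 4OHT, by 0.31 ± 0.05 (adjusted p = 3.68e-06). In NS cells it rose with Dox and 4OHT by 0.19 ± 0.05 (adjusted p = 0.0033), a call that ended with DESeq2 (adjusted p = 0.0503) and without NS DMSO replicate 2 (0.15, adjusted p = 0.0693). With the knockdown present the change was 0.04 ± 0.05 (adjusted p = 0.532, 95% interval -0.06 to 0.14), and the difference of responses, -0.15 ± 0.07, was not called (adjusted p = 0.0931), though it was with library totals alone as the scale (-0.21, adjusted p = 0.0192). Adam17 was 40.8 and 44.7 times as abundant per length as Adam8 in NS Dox-4OHT and 3.09 and 3.25 times in knockdown Dox-4OHT.

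**Figure D3:**
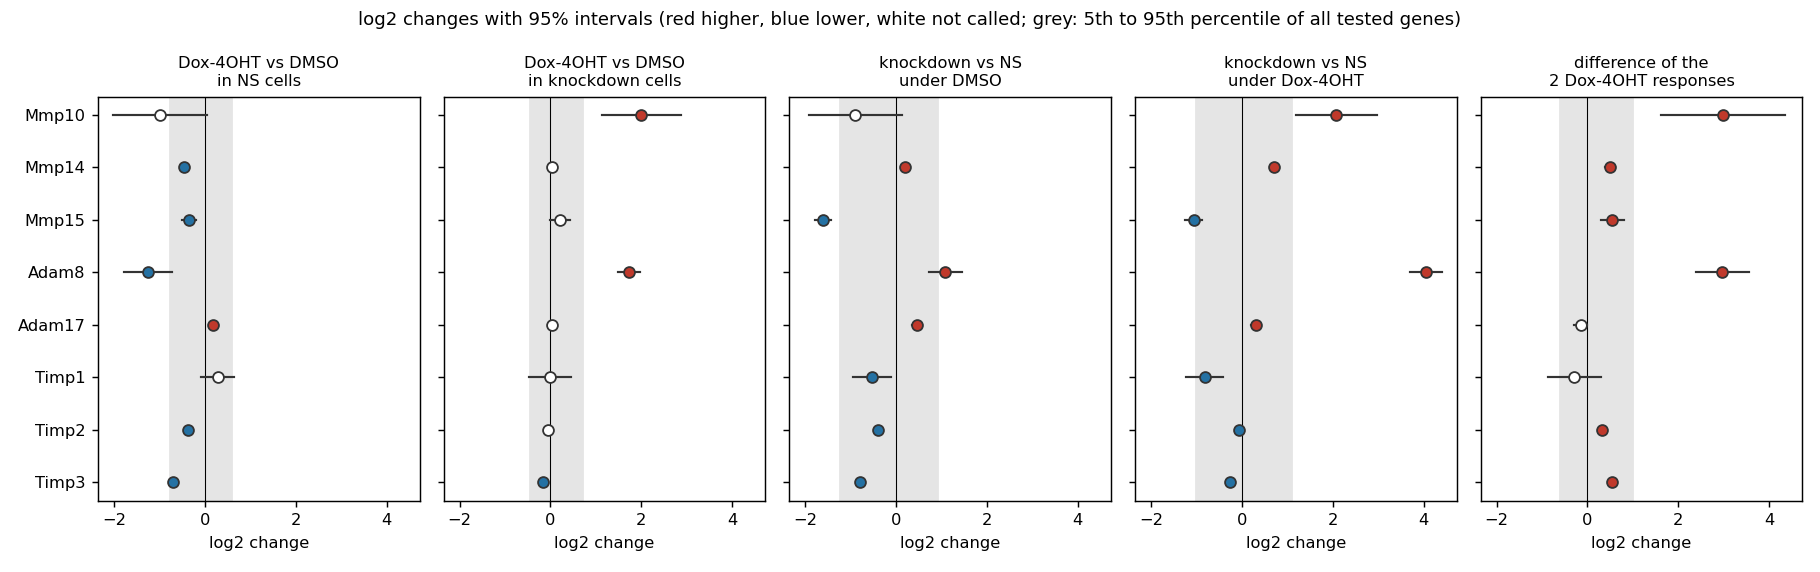
log2 changes of the 8 tested genes with their 95% intervals in the 4 comparisons and for the difference of the 2 Dox-4OHT responses; the grey band spans the 5th to 95th percentile of all tested genes. Adam8 (4.05) and Mmp10 (2.08) lie above the band for the knockdown under Dox and 4OHT, and Mmp15 lies below it for the knockdown under both treatments (-1.61 and -1.06).

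Among the inhibitors, Timp3 fell in every comparison. It stood at 2291 and 2255 CPM in NS DMSO, 1400.3 and 1423 in NS Dox-4OHT, 1313 and 1291 in knockdown DMSO and 1159 and 1176 in knockdown Dox-4OHT. No groups overlapped. With Dox and 4OHT in NS cells it was at 62.1% of the NS DMSO mean (log2 change -0.69 ± 0.03, adjusted p = 6.26e-17), and with the knockdown under DMSO at 57.3% (-0.80 ± 0.03, adjusted p = 5.03e-19). With both it was at 51.4%. The further steps were smaller: -0.16 ± 0.03 with Dox and 4OHT in knockdown cells (adjusted p = 7.85e-05) and -0.27 ± 0.03 with the knockdown under Dox and 4OHT (adjusted p = 3.71e-09). The responses to Dox and 4OHT differed by 0.53 ± 0.04 (adjusted p = 6.54e-11).

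Timp2, the inhibitor that bridges MT1-MMP and proMMP2, was also highest in NS DMSO, with smaller changes. It stood at 1426 and 1429.9 CPM in NS DMSO, 1088 and 1111 in NS Dox-4OHT, 1101 and 1067 in knockdown DMSO and 1060.1 and 1029.9 in knockdown Dox-4OHT. The NS DMSO libraries were above the other 6, which lay close together. Timp2 fell with Dox and 4OHT in NS cells (-0.38 ± 0.03, adjusted p = 3.66e-11) and with the knockdown under DMSO (-0.40 ± 0.03, adjusted p = 4.26e-12). In knockdown cells its change with Dox and 4OHT was -0.05 ± 0.03 (adjusted p = 0.174; -0.09, adjusted p = 0.0298, with library totals alone). The responses differed by 0.32 ± 0.04 (adjusted p = 6.09e-07). The knockdown change under Dox and 4OHT, -0.07 ± 0.03 (adjusted p = 0.0343), was at the edge of the threshold. The call ended with DESeq2 (adjusted p = 0.194), without NS Dox-4OHT replicate 2 (0.213) or knockdown Dox-4OHT replicate 2 (0.286), and narrowly in 6 other analyses (0.055 to 0.0754).

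Timp1, which many tissues induce on injury, was low here. It stood at 4.32 and 5.01 CPM in NS DMSO, 5.13 and 6.12 in NS Dox-4OHT, 3.67 and 2.85 in knockdown DMSO and 2.93 and 3.52 in knockdown Dox-4OHT. All 4 knockdown libraries were below all 4 NS libraries. It was lower with the knockdown under Dox and 4OHT (-0.81 ± 0.20, adjusted p = 0.000904). Under DMSO the call (-0.53 ± 0.20, adjusted p = 0.0267) ended with DESeq2 (adjusted p = 0.158), without NS DMSO replicate 2 (-0.43, adjusted p = 0.154) and without knockdown DMSO replicate 2 (-0.34, adjusted p = 0.26). Its changes with Dox and 4OHT, 0.28 ± 0.18 in NS cells (adjusted p = 0.228, 95% interval -0.09 to 0.65) and -0.01 ± 0.22 with the knockdown (adjusted p = 0.978, 95% interval -0.47 to 0.45), were not called. Nor was their difference, -0.29 ± 0.29 (adjusted p = 0.464).

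Ratios within a library do not depend on its scaling. The summed Timp members per length were 10.6 and 10.4 times the summed Mmp members in NS DMSO, 9.80 and 9.82 times in NS Dox-4OHT, 7.10 and 7.04 times in knockdown DMSO and 6.22 and 6.35 times in knockdown Dox-4OHT. The 4 groups did not overlap. In NS Dox-4OHT both sums were lower than in NS DMSO (606 and 619 against 889 and 884 CPM per kilobase for Timp, 61.9 and 63.0 against 83.5 and 85.2 for Mmp). In knockdown DMSO the Timp sum was lower (589.6 and 575) and the Mmp sum was 83.1 and 81.7. Mmp14 alone made up 77.6% (NS Dox-4OHT replicate 1) to 93.7% (knockdown DMSO replicate 2) of the Mmp sum. The ratio is one of transcripts and covers only the members, and with 2 libraries a group an exact two-sided permutation test could not go below p = 0.333, so none is given.

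**Figure D4:**
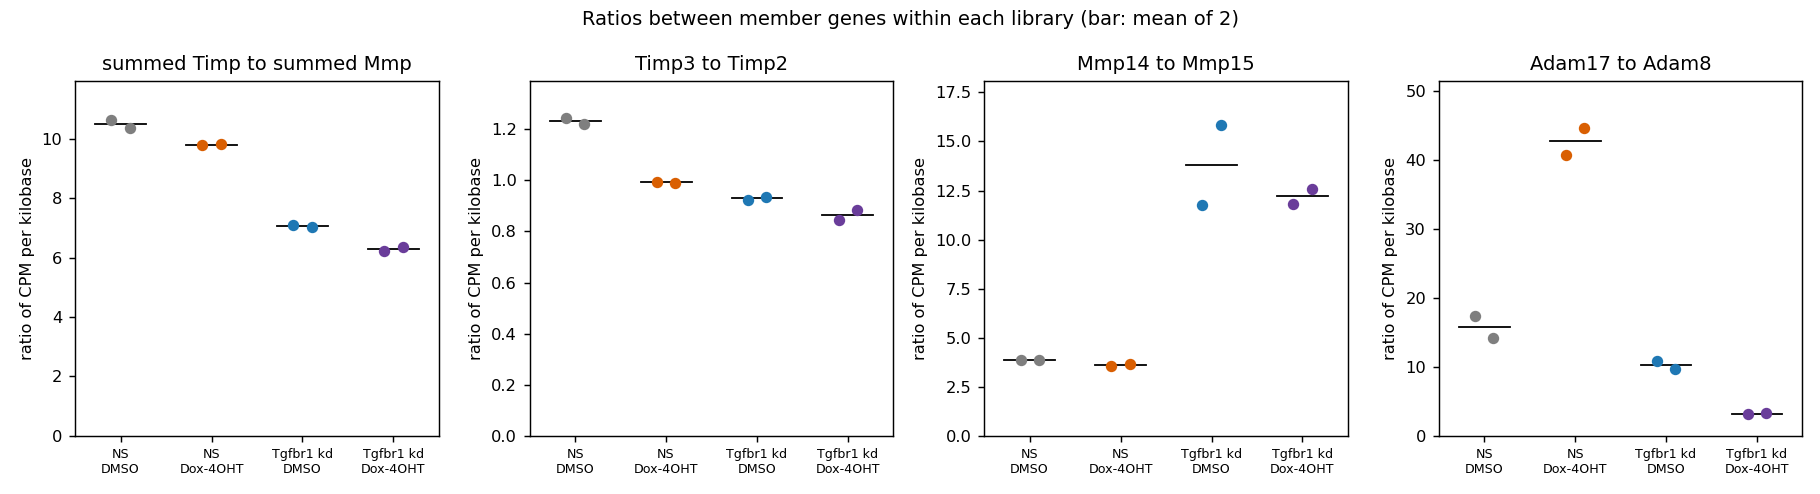
Ratios of CPM per kilobase within each library, with the mean of 2 as a bar and axes from 0. Summed Timp to summed Mmp members falls from 10.4 to 10.6 in NS DMSO to 6.22 to 6.35 in knockdown Dox-4OHT, Mmp14 to Mmp15 is at least 11.8 in the knockdown libraries, and Adam17 to Adam8 is highest in NS Dox-4OHT.

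Of the difference between the 2 responses to Dox and 4OHT, 6 of the 8 tested genes were called, all 6 in the positive direction (Adam8, Mmp10, Mmp15, Timp3, Mmp14 and Timp2). Of all genes tested 38.2% were called for it, 20.2% in the positive direction. Differences of at least 2-fold were called for 2 of the 8, Adam8 and Mmp10, and for 4.28% of all genes. The median difference was 0.51 over the 8 and 0.02 over all tested genes. Given how the members were chosen, with earlier results known, this too is a description and no test. For Adam8 a positive value stands for a fall in NS cells and a rise in knockdown cells. For Timp3 it stands for a larger fall in NS cells than in knockdown cells.

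Related genes were taken from lists of the same families and pathways. Their counts are to be read against the shares of all genes called: 20.8% higher and 21.3% lower for Dox and 4OHT in NS cells, 19.5% and 16.6% in knockdown cells, 30.9% and 31.0% for the knockdown under DMSO, and 30.5% and 29.7% for it under Dox and 4OHT. Of the 18 other MMP genes 6 were tested, with 4 lower and 0 higher in NS cells under Dox and 4OHT (21.3% of all genes were lower) and 2 higher and 0 lower in knockdown cells (19.5% higher). With the knockdown 2 were higher and 3 lower under DMSO, and 3 higher and 2 lower under Dox and 4OHT. The gelatinase gene Mmp2 stood at 7.56 and 7.57 CPM in NS DMSO, 2.78 and 4.32 in NS Dox-4OHT, 1.45 and 1.83 in knockdown DMSO and 1.01 and 0.742 in knockdown Dox-4OHT. Its knockdown changes were -2.19 ± 0.22 with DMSO alone (adjusted p = 2.19e-09) and, with Dox and 4OHT, -1.94 ± 0.30 (adjusted p = 3.3e-06). Mmp11, stromelysin-3, was like Mmp14 lowest in NS Dox-4OHT: it fell with Dox and 4OHT in NS cells (-0.90 ± 0.11, adjusted p = 4.71e-07), and was higher with the knockdown under Dox and 4OHT (1.08 ± 0.11, adjusted p = 8.22e-09). Mmp28, epilysin of keratinocytes, rose with Dox and 4OHT in knockdown cells (1.03 ± 0.18, adjusted p = 3.75e-05). Mmp19 was higher with the knockdown under both treatments (0.62 ± 0.15 and 0.90 ± 0.14, adjusted p = 0.000607 and 3.06e-06). Mmp12, macrophage elastase, had 18.5 and 26 counts in NS DMSO and 1 in each knockdown DMSO library.

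Of 10 other ADAM genes 7 were tested, and under Dox and 4OHT 4 were higher and 1 was lower with the knockdown (30.5% and 29.7% of all genes). Under DMSO 3 were higher and 2 lower (30.9% and 31.0% of all genes). Adam9, a membrane sheddase, stood at 116 and 113 CPM in NS Dox-4OHT and 205 and 205 in knockdown Dox-4OHT, a knockdown change of 0.84 ± 0.04 under Dox and 4OHT (adjusted p = 4.34e-16). Adam10, the closest relative of Adam17, was higher in the same comparison by 0.65 ± 0.05 (adjusted p = 2.86e-11). Adam12 went against them, at 32.4 and 34.1 CPM in NS Dox-4OHT and 5.44 and 6.02 in knockdown Dox-4OHT (-2.54 ± 0.12, adjusted p = 1.39e-15). Of 19 ADAMTS genes, which encode secreted proteases, 9 were tested, and 6 were lower and 0 higher with the knockdown under DMSO (31.0% and 30.9% of all genes). Under Dox and 4OHT 4 were lower and 1 was higher. The aggrecanase gene Adamts5 stood at 115 and 123 CPM in NS DMSO and at 27.4 and 31.9 in knockdown DMSO (-2.0 ± 0.07, adjusted p = 2.37e-18). Adamts4, the other main aggrecanase gene, rose with Dox and 4OHT in knockdown cells (1.55 ± 0.17, adjusted p = 5.39e-08).

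Other inhibitors were almost absent: Timp4 had 0 counts in all 8 libraries, and Reck, a membrane-anchored MMP inhibitor, had counts in 1 library only, at 0.0703 CPM. The 12 listed inhibitors and regulators had 5 tested members, all 5 higher with the knockdown under Dox and 4OHT (30.5% of all genes). Under DMSO 3 were higher and 1 was lower (30.9% and 31.0% of all genes). The lower one was Bsg, an inducer of MMPs (-0.24 ± 0.03, adjusted p = 7.76e-07). With the knockdown under Dox and 4OHT Furin, which activates the precursors of MT-MMPs and ADAMs, was higher by 0.64 ± 0.04 (adjusted p = 5.89e-14). Rhbdf2 and Rhbdf1 encode the iRhom proteins that carry ADAM17 to the cell surface. In the same comparison they were higher by 0.91 ± 0.07 (adjusted p = 3.69e-12) and 0.40 ± 0.04 (adjusted p = 1.37e-08).

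Of 15 listed substrates of ADAM17 and ADAM10 13 were tested. With the knockdown under DMSO 11 were higher and 1 was lower (30.9% and 31.0% of all genes), and under Dox and 4OHT 10 were higher and 0 lower (30.5% and 29.7%). The adhesion receptor gene Cd44 rose by 0.70 ± 0.03 under DMSO (adjusted p = 9.97e-17) and the EGF receptor ligand gene Tgfa by 1.37 ± 0.06 (adjusted p = 1.22e-16). With Dox and 4OHT 8 of the 13 were higher and 2 lower in NS cells (20.8% and 21.3% of all genes). In knockdown cells 9 were higher and 0 lower (19.5% and 16.6%). Cd44 and Tgfa rose with Dox and 4OHT in NS cells too, by 0.65 ± 0.03 and 0.81 ± 0.07 (adjusted p = 1.37e-15 and 1.1e-10). For the difference of the 2 responses 2 were called higher and 5 lower (20.2% and 18.0%). Of 14 matrix substrates of MMPs 10 were tested, with 7 lower and 1 higher with the knockdown under DMSO (31.0% and 30.9% of all genes). Under Dox and 4OHT the direction was not shared, with 5 higher and 4 lower (30.5% and 29.7%). Col7a1, the anchoring fibril collagen, fell under DMSO by 1.22 on the log2 scale (adjusted p = 3.52e-21) and Col4a1 by 0.87 (adjusted p = 1.02e-18). The laminin chain genes Lama3 and Lamb3 responded to Dox and 4OHT differently in the 2 kinds of cells, with differences of 0.80 ± 0.05 and 0.72 ± 0.05 (adjusted p = 1.93e-13 and 1.57e-12).

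The factor families whose motifs were searched were themselves measured. Of 10 AP-1 genes 9 were tested. With Dox and 4OHT 9 were higher and 0 lower in knockdown cells (19.5% and 16.6% of all genes) and 5 higher and 1 lower in NS cells (20.8% and 21.3%). With the knockdown 4 were higher and 2 lower under DMSO (30.9% and 31.0% of all genes), and 5 higher and 2 lower under Dox and 4OHT (30.5% and 29.7%). The lower ones were Jun (-0.74 ± 0.04 and -0.87 ± 0.04, adjusted p = 2.99e-15 and 3.92e-17) and Fosl2 (-1.38 ± 0.03 and -0.34 ± 0.03, adjusted p = 1.6e-22 and 1.7e-09). Fosl1 stood at 1.34 and 1.46 CPM in NS DMSO, 4.82 and 5.75 in NS Dox-4OHT, 13.1 and 14.6 in knockdown DMSO and 27.6 and 26.4 in knockdown Dox-4OHT. All 3 PEA3 genes were called higher in all 4 comparisons. Of all genes 20.8% and 19.5% were higher with Dox and 4OHT in NS and in knockdown cells. With the knockdown 30.9% were higher under DMSO and 30.5% under Dox and 4OHT. Etv1 was scarce outside knockdown Dox-4OHT. It had 0 counts in both NS DMSO libraries and 3 and 1 in knockdown DMSO (4.12 ± 1.72, adjusted p = 0.0399). In NS Dox-4OHT it had 6 and 4.5 counts, and in knockdown Dox-4OHT 26 and 22. Etv4 stood at 10.7 and 11.8 CPM in NS DMSO and 114 and 125 in NS Dox-4OHT. It stood at 91.5 and 98.8 CPM in knockdown DMSO and 156 and 152 in knockdown Dox-4OHT. Its responses to Dox and 4OHT differed by -2.72 ± 0.09 (adjusted p = 9.2e-18). Whether either family bears on the members was not tested.

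Genes with the pattern most like that of a member were sought by Pearson correlation of log2 CPM over the 8 libraries, which share their groups, so high values are common. Closest to Adam8 were Daam1, Gpr137b and Rab31 (r = 0.996, 0.996 and 0.995), and to Mmp14 Erlin2, Psapl1 and Mut (0.996, 0.996 and 0.995). Closest to Mmp15 were Gpc1, Fzd2 and Bace1 (0.995, 0.994 and 0.994), to Timp2 Ephb3, Krt17 and Cavin3 (0.998, 0.997 and 0.996), and to Timp3 Il17re, Dhrs3 and Sec31a (0.999, 0.996 and 0.996). Adam17 was closest to Socs1, Hmga2 and Aplp2 (0.997, 0.996 and 0.996). The low-count genes had lower values, with Ccdc71 and Gpnmb among the closest for Mmp10 (0.969 and 0.946) and Dcaf15, Emc7 and Dhodh for Timp1 (0.985, 0.984 and 0.980). Among the members themselves, Timp2 and Timp3 were the most alike (r = 0.988) and Mmp15 and Adam17 the most opposed (-0.955).

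Some members lie in or across another gene. Adam8 shares sequence with Gm16201 on the opposite strand, which was not analysed here, and with Mir7062 on the same strand, which had 0 counts in every group. Timp1 and Timp3 lie on the opposite strand within Syn1 and Syn3, Cep295nl lies in Timp2 on the same strand, and Iah1 overlaps Adam17 on the opposite strand (GENCODE M21). The sources used here do not state whether counting used the strand, so reads in shared stretches cannot be assigned. The other neighbours were low beside the members: at most 6.5 counts per group for Syn1, 95 for Syn3, 54 for Cep295nl and 256 for Iah1.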

How the data were processed

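RNA was sequenced from 8 libraries of ASZ001 cells in 4 groups. The values are estimated counts per gene in steps of 0.5, as deposited. Per the submitters' processing notes, the authors used TopHat, HOMER and DESeq2 with build mm9; the sources used here give no versions or strand settings. Groups came from the sample labels.

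The estimated counts were rounded to whole numbers and tested with edgeR 4.0.16 in R 4.3.3 (TMM factors, filterByExpr, robust quasi-likelihood test, all 8 libraries in 1 fit with 4 residual degrees of freedom). Benjamini-Hochberg adjustment ran over all 12538 genes tested; 12369 were left out as too low. The 5 contrasts were the 2 Dox-4OHT responses, the 2 knockdown effects and the interaction between them. Values after ± are SDs for levels and SEs for log2 changes. CPM used the deposited values and TMM factors, and CPM per kilobase also the length the file gives. In all, 2 entries that repeated a symbol were dropped. Alternatives were DESeq2 1.42.0, other scalings, no filter, only the libraries compared, a replicate block, Rn45s left out and each library left out.

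The members and the lists of related genes were chosen with earlier results of these data known. From each list, up to 3 called genes with the smallest p in a comparison could be named. For each tested member the 3 most correlated genes were named. Some genes that these rules select are not reported here. Intervals on counts cover counting error only.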

Additional observations from a re-analysis of the deposited data

Results flagged for a closer look

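For 6 of the 8 tested members the response to Dox and 4OHT differed between NS and knockdown cells in edgeR's interaction test. In the same test 38.2% of all genes were called, 20.2% in the positive direction. The difference (knockdown minus NS, log2) was 2.98 for Mmp10, 2.97 for Adam8, 0.55 for Mmp15, 0.53 for Timp3, 0.50 for Mmp14 and 0.32 for Timp2. Adam8 was the member called in opposite directions in the 2 kinds of cells. Mmp10 rested on 4 to 26 counts per library. Timp2, Timp3, Mmp14 and Mmp15 were each called lower in NS cells, and in knockdown cells Timp3 alone of these was called, also lower. All 6 differences stayed called, in the same direction, in every alternative analysis run.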

How the results depend on the processing

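DESeq2 called fewer genes than edgeR: 3259 against 5281 for Dox and 4OHT in NS cells, 2625 against 4531 in knockdown cells and 2828 against 4791 for the interaction; the cause was not tested. Leaving out 1 library gave 3888 to 5329, 3306 to 4670 and 3918 to 4533 genes in these, and 6650 to 7904 and 6585 to 7608 for the knockdown under DMSO and under Dox and 4OHT. Members called then numbered 5 to 6, 3 to 4, 6, 6 to 7 and 7 to 8 in the same order.

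Over 40 member results, 572 of 592 alternative values kept direction and side of the threshold, 14 lost the call, 3 gained one and 3 reversed, in 7 results in all. The reversals were of changes that the test on all libraries did not call, both with Dox and 4OHT in knockdown cells: Mmp15 became -0.00 without knockdown DMSO replicate 2, and Timp1 0.18 and 0.13 without replicate 1 of knockdown DMSO or knockdown Dox-4OHT; the cause was not tested. Leaving out 1 library moved these changes from -0.00 to 0.41 for Mmp15 and from -0.2 to 0.18 for Timp1. The first of these was called at 0.41. The other changes concern Timp1, Timp2, Adam17 and Mmp15 and stand beside those results.

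Replicate numbers did not pair the libraries (correlations of deviations -0.0208 to 0.0243). With a replicate block 5319, 4559, 7777, 7554 and 4814 genes were called (NS response, knockdown response, knockdown under DMSO, knockdown under Dox and 4OHT, interaction), with 6, 3, 7, 8 and 6 members. A fit to only the libraries compared could not be made for the interaction, which uses all 8. With 2 libraries a group and few counts, depth limits Mmp9, Mmp13, Mmp10 and Timp1.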
